A study of Mus musculus with 82 samples.

Results

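Plasma cells cut by laser from oil granulomata were compared with whole sections of the same granulomata 105 days after pristane, in study 2 of the series. The members were the arrays labelled as day 105 of study 2: 6 arrays of captured cells and 3 of whole tissue, 9 of the 82 arrays in all. They came from 3 specimens by the numbers in the sample names, with 2 captured arrays and 1 whole-tissue array each. The 2 captured arrays of specimen 1 came from pieces named 1A and 1C and its whole section from 1C, while specimens 2 and 3 used piece 2B and piece 3C throughout. All mice were BALB/c.iMycEμ, a strain with Myc inserted at the immunoglobulin heavy chain locus, so the cells of both groups carried the insertion. They were at least 8 weeks old and had received 0.5 ml of pristane oil into the peritoneum. Whether each specimen was a separate mouse is not stated, so p-values measure a spread between specimens that may be technical. In the main fit that spread was pooled over all 19 groups of both studies, not taken from day 105 alone.

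Pristane is a mineral oil component that draws macrophages and neutrophils into the peritoneum and leaves oil granulomata on its surfaces. In susceptible BALB/c mice plasma cells gather in these granulomata and can progress to plasmacytoma, a tumour in which an immunoglobulin locus has usually activated Myc. A plasma cell is a B lineage cell devoted to antibody secretion: Prdm1, Irf4 and Xbp1 impose its program, and an enlarged endoplasmic reticulum folds and exports immunoglobulin. Methyl green pyronin stains its RNA-rich cytoplasm, and cells positive for this stain were the ones captured. The comparison asks which transcripts were higher or lower in the captured cells than in the tissue around and including them.

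Values are log2 intensities after quantile normalization, and every difference is captured minus whole over 3 specimens. The arrays give no call of whether a gene was detected. After normalization the median gene of an array lay at 5.68, 5% of genes lay under 3.28 and 5% over 10.43, and a fold change against a value near the lower end is not exact. The deposited captured and whole arrays had separate distributions, with medians of 5.31 to 5.36 and 7.13 to 7.24. Whether the authors processed captured and whole arrays as separate sets is not stated. The tissue contrast therefore cannot be told apart from such a difference in processing. RNA ends also differed: actin and Gapdh control probe sets at the 3′ end exceeded those at the 5′ end by 3.46 ± 0.31 log2 units in captured arrays (SD, n = 6) and by 1.55 ± 0.15 in whole arrays (SD, n = 3). The ranges, 3.10 to 3.89 and 1.39 to 1.66, did not overlap. Captured arrays of 1 specimen correlated at 0.973, 0.979 and 0.990 across genes, and 350, 196 and 30 of 8617 genes were at least 2-fold apart.

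The label of the captured cells was checked against markers. Jchain, which joins secreted antibody into polymers, read 12.92, 12.73 and 12.74 in captured specimens 1 to 3, and Xbp1 read 13.17, 12.55 and 12.65. Sdc1, the plasma cell surface proteoglycan CD138, read 10.37, 9.86 and 9.80. Pax5, the B cell factor that plasma cells shut off, lay near the lower end at 3.88, 3.74 and 3.78. In whole specimens Pax5 read 3.97, 3.99 and 4.17. Some B cell genes were brighter than Pax5 in captured cells. Blnk read 11.69, 11.66 and 11.46 in captured specimens and 9.92, 11.58 and 12.10 in whole specimens. Ms4a1 read 8.82, 5.51 and 9.53 against 9.61, 6.79 and 8.34, and neither gene passed the tissue test. The mean over 12 B cell genes was 6.28 to 7.32 in captured specimens and 6.31 to 7.92 in whole specimens. Whether B cells were among the captured cells was not tested. RNA known from other cells was present as well: the macrophage genes Csf1r, Mpeg1 and Ctss averaged 10.97, 11.19 and 12.20 in captured cells and Col3a1, a fibroblast collagen, averaged 12.23. The mean over 22 macrophage genes was 8.55 to 9.00 in captured specimens and 8.53 to 9.87 in whole specimens. Over 9 pancreatic acinar enzyme genes the captured mean was 4.70 to 4.95. In whole sections the 17 plasma cell identity genes averaged 9.39 to 9.91, against 9.18 to 9.96 in captured cells, and the ranges overlapped. The part of these other cells in the differences below was not tested. In such sections fewer cells of a type and less RNA per cell cannot be told apart.

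Of 8617 genes tested, 2322 (26.9%) differed between captured cells and whole granuloma at an adjusted p under 0.05 (limma with Benjamini-Hochberg adjustment, specimen as a random block). Higher in captured cells were 1258 genes, 14.6% of those tested, and lower were 1064, or 12.3%. At least a 2-fold difference was reached by 668 of the higher and 629 of the lower genes, and at least 4-fold by 36 and 57. The median gene differed by 0.03. Specimen averages did not overlap between the tissues for 1928 genes on the higher side (22.4%) and 1594 on the lower side (18.5%). With the specimen as a fixed term, the day 105 averages alone, with 2 residual degrees of freedom among samples, gave 2009 higher and 1773 lower genes, and study 2 gave 725 and 674. Without specimen 1, 2 or 3 the count was 1206, 1238 or 1434. The split depended on the scaling: with each array centred on its median 2175 genes were higher and 865 lower, with all genes shifted by 0.23, and on the deposited scale 16 and 7631, with all genes shifted by −1.60. With the 3′ to 5′ difference as a covariate 802 were higher and 1203 lower, and 1249 genes were shared with the 2322.

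The 10 largest increases in captured cells were ranked without immunoglobulin genes, and 4 were of zinc finger genes. Of 18 immunoglobulin genes tested, 0 passed as higher. Mrpl47, a protein of the mitochondrial ribosome's large subunit, read 9.84, 9.70 and 9.56 in captured specimens and 6.50, 6.96 and 6.36 in whole specimens. Every captured specimen lay above every whole specimen, and the fitted difference was 3.09 (SE 0.36, 8.52-fold, limma adjusted p = 4.18e-08). Zfp53, a zinc finger gene, read 7.94, 8.49 and 7.67 against 5.04, 5.35 and 4.68, a difference of 3.01 (SE 0.33, adjusted p = 1.64e-08). The zinc finger genes BC002059, Zfp958 and Zfp472 followed at 3.01, 2.82 and 2.59. Pcf11, which acts in cleavage and termination of transcripts, rose by 2.62, and Sf3b6, a subunit of the SF3b splicing complex, by 2.61. Cenpk, a centromere protein, read 9.49, 8.67 and 8.27 in captured cells and 6.30, 6.43 and 5.36 in whole tissue (difference 2.78, SE 0.36). These 8 genes passed under every alternative tried.

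Malat1, a long noncoding RNA held in the nucleus, and Cgref1, a secreted calcium-binding protein, completed the 10 largest increases. Malat1 read 9.30, 9.26 and 10.10 in captured cells and 6.59, 6.30 and 7.25 in whole tissue, a difference of 2.84 (SE 0.55). Its other probe sets differed by 1.87, 0.21, 0.12 and −0.54, of which the first passed. The mean of its probe sets differed by 0.90 and did not pass, so the size of the Malat1 difference depends on the probe set. Cgref1 was highest in specimen 1 in both tissues: it read 10.24, 7.08 and 6.11 in captured cells and 6.56, 4.42 and 3.99 in whole tissue (difference 2.82, SE 0.54). The Cgref1 call was lost when the 9 arrays were normalized and fitted alone, at 2.89.

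2 gene families behind these increases were counted after their values were seen. Of 113 tested genes named Zfp and a number, 41 were higher (36.3%) and 8 lower (7.08%), beside 14.6% and 12.3% of all genes. The median was 0.47, beside 0.03 over all genes. Their median exceeded that of all genes by 0.28 to 0.65 under both other scalings and the 3′ to 5′ covariate, and 37 and 8 passed with that covariate. Of 74 genes named Mrpl or Mrps, 20 were higher (27.0%) and 3 lower (4.05%), with a median of 0.48. In this family the counts turned with the covariate, to 6 higher and 11 lower, and without specimen 1 only 6 were higher. On a list of 29 mitochondrial ribosomal protein genes 7 were higher (24.1%) and 0 lower, among them Mrpl20 at 1.86, Mrpl44 at 1.47 and Mrpl12 at 1.24. Of these 3, Mrpl20 kept its call without each specimen; without specimen 1 Mrpl44 (1.29) and Mrpl12 (0.95) did not pass, nor without specimen 2 (1.41 and 1.24). With the covariate Mrpl20 (0.82), Mrpl44 (0.20) and Mrpl12 (0.92) did not pass.

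The steepest decreases in captured cells included fat cell genes. Car3, a carbonic anhydrase abundant in fat, read 5.27, 3.95 and 4.22 in captured specimens and 12.45, 9.18 and 10.63 in whole specimens. Whole specimen 1 was the highest and whole specimen 2 the lowest, and no captured value came near either. The difference was −6.28 (SE 1.44, 77.5-fold lower, adjusted p = 0.00114), and it passed under every alternative tried. Cyp2e1, a cytochrome P450, read 3.55, 3.69 and 3.76 against 9.55, 7.89 and 9.02 (−5.15, SE 1.18). Adipoq, the fat cell hormone adiponectin, read 3.71, 3.52 and 3.65 against 9.64, 6.62 and 7.62 (−4.34, SE 1.24). Cidec, a lipid droplet protein, read 3.36, 3.32 and 3.28 against 7.72, 4.80 and 6.69 (−3.09, SE 0.81). Thrsp, a regulator of fat synthesis, overlapped between tissues, with 5.00, 3.86 and 3.87 against 10.65, 4.46 and 6.74 (−3.04, adjusted p = 0.0486).

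Whole specimen 1 held the most of the fat transcripts, and without specimen 1 Adipoq (−3.54), Cidec (−2.45) and Thrsp (−1.73) did not pass; Thrsp was also lost without specimen 3 (−3.13). With the 3′ to 5′ covariate Cyp2e1 (−3.65), Adipoq (−3.14), Thrsp (−1.89) and Tac1 (−2.34) did not pass. Of 11 adipocyte genes tested 5 were lower (45.5%) and 0 higher, beside 12.3% and 14.6% of all genes, with a median of −0.93. Fabp4 and Lpl, which macrophages also express, differed by −0.10 and −0.09 and did not pass, and both signs turned under centring (0.19 and 0.48). Thrsp, at −1.40 over the mean of its probe sets, did not pass there either. Other deep decreases were of genes not known for fat. Pam, the enzyme that amidates peptide hormones, read 3.96, 4.06 and 4.40 in captured cells and 7.81, 7.12 and 7.33 in whole tissue, a difference of −3.28 with little spread (SE 0.29, adjusted p = 1.49e-10). Slc6a6, a taurine transporter, fell by 3.09, Asb8 by 2.95 and Rraga, a GTPase that signals amino acid supply to mTORC1, by 2.86. Tac1, the precursor of substance P, fell by 2.86.

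**Figure D1:**
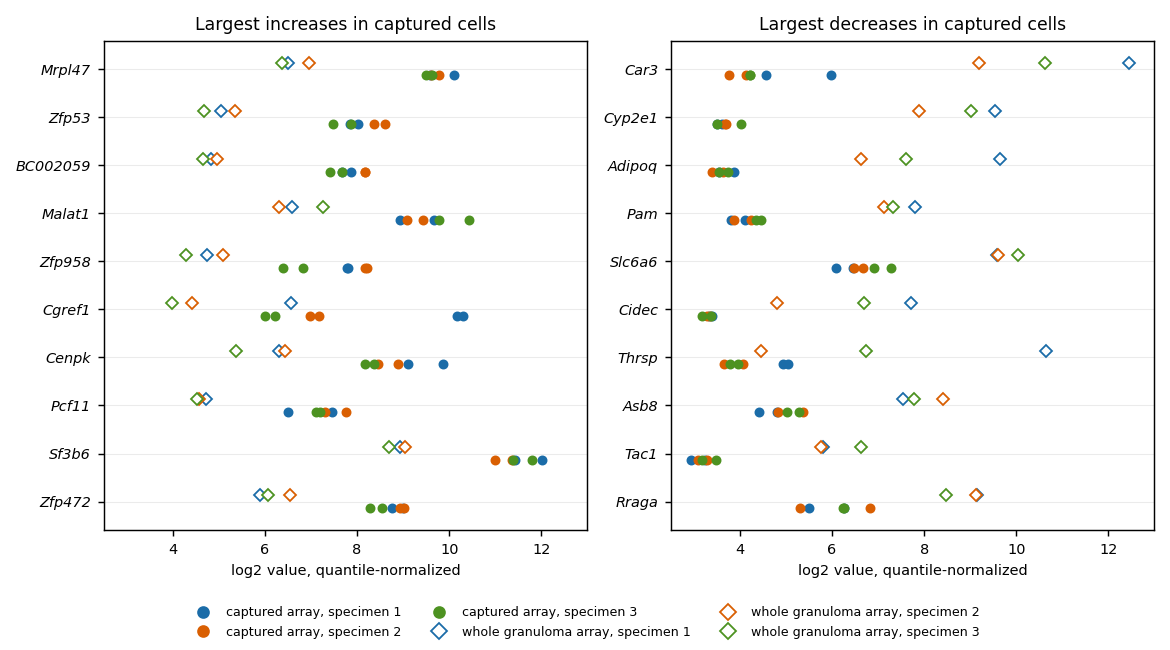
Log2 values of the 10 genes with the largest increases (left) and decreases (right) in captured cells, immunoglobulin genes left out. Each filled circle is a captured array, each open diamond a whole-granuloma array, coloured by specimen. For Mrpl47 the captured arrays lie at 9.50 to 10.10 and the whole arrays at 6.36 to 6.96, whereas Thrsp overlaps because whole specimen 2 lies at 4.46.

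The genes that define a plasma cell mostly did not separate the captured cells from the section. Of 17 plasma cell identity genes tested, 1 was higher (5.88%) and 2 were lower (11.8%), beside 14.6% and 12.3% of all genes. Their median was −0.16. Relative to all genes that median was −0.19, and it turned to 0.25 under centring on the median. Among the transcription factors, Xbp1 read 13.00, 11.88 and 12.34 in whole specimens, against 13.17, 12.55 and 12.65 in captured cells, a difference of 0.38 (adjusted p = 0.192). Of its 3 other probe sets, those at 0.77 and 2.21 passed and that at 0.09 did not. Prdm1, which ends the B cell program, read 9.08, 9.13 and 9.84 in captured cells and 9.23, 9.87 and 9.86 in whole tissue (−0.30, adjusted p = 0.649). Irf4 read 10.32, 10.20 and 9.75 against 11.33, 10.89 and 10.95 (−0.97, adjusted p = 0.0742). The groups did not overlap for Irf4, but the difference did not pass. Jchain (0.07) and Sdc1 (0.13) did not pass either. The scaling decided this for the brightest genes: with each array centred on its median Xbp1 (1.52) and Jchain (1.29) passed as higher in captured cells, and relative to the median gene on the deposited scale so did both (1.29 and 1.06).

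Eaf2, an elongation factor partner expressed in plasma cells, was the plasma cell gene that rose. It read 11.42, 10.43 and 9.98 in captured specimens and 9.52, 8.56 and 8.52 in whole specimens, and specimen 1 was highest in both. The Eaf2 difference was 1.74 (SE 0.52, adjusted p = 0.0106). It did not pass without specimen 1 (1.67) or specimen 2 (1.68), and it was 0.50 with the 3′ to 5′ covariate and 1.75 with a fixed specimen term in study 2. Slamf7, a surface receptor of plasma cells, read 8.78, 7.05 and 7.77 against 7.90, 6.62 and 7.34 (0.58, adjusted p = 0.182).

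The receptors for BAFF and APRIL, the cytokines that keep B lineage cells alive, differed from one another. Tnfrsf13b, the receptor TACI, was lower in captured cells: 8.80, 8.37 and 8.10 against 10.04, 10.62 and 9.95, with no overlap. The difference of −1.78 (SE 0.39, 3.43-fold lower, adjusted p = 8.12e-04) passed under every alternative tried. Tnfrsf13c, the BAFF receptor, read 8.91, 8.58 and 7.90 against 9.37, 9.14 and 9.50 (−0.88, adjusted p = 0.0434). Without specimens 1, 2 and 3 in turn Tnfrsf13c lost its call, at −1.08, −1.03 and −0.51, and under centring at −0.55. Tnfrsf17, the receptor BCMA on which long-lived plasma cells depend, read 8.08, 5.78 and 5.88 against 6.34, 4.96 and 4.73 (1.24, adjusted p = 0.0726). Specimen 1 was highest for Tnfrsf17 in both tissues, and captured cells were higher in each specimen.

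**Figure D2:**
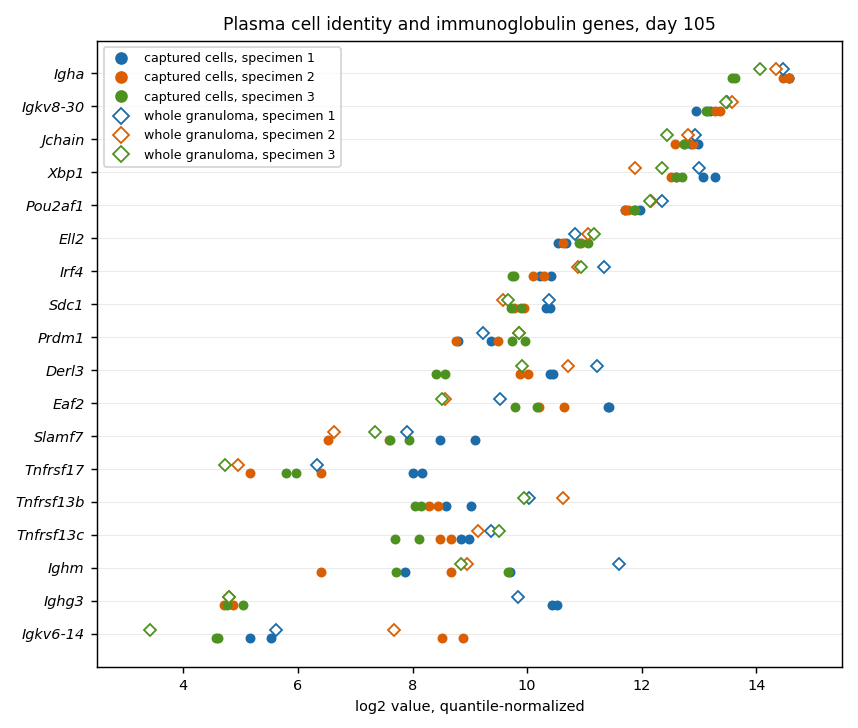
Log2 values of plasma cell identity and immunoglobulin genes at day 105; filled circles are captured arrays and open diamonds whole-granuloma arrays, coloured by specimen. Igha, Jchain and Xbp1 lie together at the right in both tissues, Tnfrsf13b is higher in whole tissue, and Ighg3 is high in specimen 1 alone, at 10.48 captured and 9.85 whole.

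The main immunoglobulin transcripts read near the top of the scale in both tissues. Of 18 genes tested, 2 were lower (11.1%) and 0 higher in captured cells, beside 12.3% and 14.6% of all genes. Their median was −0.09. Igha, the constant region of IgA, read 14.57, 14.52 and 13.60 in captured specimens and 14.47, 14.35 and 14.07 in whole specimens. The value 14.57 is the ceiling of the normalized scale, so a difference at Igha (−0.06) could be compressed. Igkv8-30, a kappa variable gene, read 13.07, 13.32 and 13.13 against 13.48, 13.58 and 13.46 (−0.34, adjusted p = 0.312). The genes that fell were both dim: Igkv4-68 read 3.09, 3.22 and 2.95 against 5.04, 5.23 and 5.74 (−2.25, adjusted p = 3.24e-04), and Igkv4-72 differed by −1.52 (adjusted p = 0.0489). The Igkv4-72 call was lost without each specimen in turn, at −1.53, −1.18 and −1.84. With the 3′ to 5′ covariate both calls were lost, Igkv4-68 at −1.47 and Igkv4-72 at −1.27. Centred on the array median, Igha stood at 1.43 and Igkv8-30 at 1.03, neither past the threshold. Variable genes of the same family are close in sequence, so their probe sets may read one another's transcripts.

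Ighm, the IgM heavy chain, pointed lower in captured cells, with a result that hung on the probe set. Its brightest probe set read 8.79, 7.54 and 8.68 in captured cells and 11.60, 8.95 and 8.84 in whole tissue, a difference of −1.46 (adjusted p = 0.121). Among its 7 other probe sets, 6 passed as lower, at −5.05, −4.62, −4.03, −3.19, −2.35 and −1.49, and 1 did not pass, at −0.57. The mean over the Ighm probe sets differed by −2.14 and passed. Individual specimens also carried their own antibody genes. Ighg3 read 10.48 in captured cells and 9.85 in whole tissue of specimen 1, and 4.79 to 4.90 in both tissues of specimens 2 and 3. Igkv6-14 read 8.70 and 7.68 in the 2 tissues of specimen 2, against 3.42 to 5.62 elsewhere, and Igkv6-20 read 6.93 and 7.46 there, against 3.61 to 4.65.

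Of 12 B cell genes tested, 1 was higher (8.33%) and 0 lower, beside 14.6% and 12.3% of all genes. Their medians were −0.88, −0.02 and 0.47 in specimens 1, 2 and 3, so the direction was not shared. Cd79a, a chain of the B cell receptor, read 5.67, 5.43 and 5.99 in captured cells and 7.21, 5.12 and 4.81 in whole tissue, lower in captured specimen 1 and higher in specimens 2 and 3. The gene that passed was Fcrla, a B cell protein related to Fc receptors, at 8.98, 5.81 and 8.94 against 7.79, 4.60 and 6.70 (1.55, adjusted p = 0.0373). Its second probe set differed by −0.25, and the Fcrla call was lost without specimen 1 (1.73) or specimen 3 (1.20). Ms4a1, the B cell surface protein CD20, read 8.82, 5.51 and 9.53 in captured cells and 9.61, 6.79 and 8.34 in whole tissue. Specimen 2 was lowest for both genes in both tissues.

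The secretory machinery of the endoplasmic reticulum was bright in both tissues, and 28 of its 32 tested genes did not pass. Among them was Hspa5, the chaperone BiP, with means of 13.27 ± 0.26 in captured and 13.13 ± 0.70 in whole tissue (SD, n = 3 each). Under centring on the median Hspa5 stood at 1.47 and passed, and the list then had 7 genes higher and 2 lower. With the 3′ to 5′ covariate it had 1 higher and 15 lower. The list's median was −0.27, and relative to all genes it was −0.31, turning to 0.33 under centring on the median and to −1.11 with the 3′ to 5′ covariate. The exceptions were 3 lower genes (9.38%) and 1 higher gene (3.12%), beside 12.3% and 14.6% of all genes. Pdia4, a disulfide isomerase, read 10.04, 9.40 and 8.89 against 12.07, 11.58 and 10.97, and its fall of 2.10 (SE 0.52, 4.28-fold, adjusted p = 0.00243) passed under every alternative tried. Pdia3, which folds glycoproteins with calnexin, read 10.32, 10.08 and 9.74 against 11.71, 11.99 and 11.20 (−1.59). Pdia3 did not pass without specimen 2 (−1.43), nor under centring (−0.81) or on the deposited scale relative to the median gene (−1.04). Sec61b, a subunit of the channel that admits new proteins, was higher: 12.82, 12.88 and 12.34 against 11.57, 11.44 and 11.04 (1.33, adjusted p = 0.0104). Ern1, the stress sensor IRE1, differed by −0.63. Sec61b and Ern1 both lost their calls without each specimen in turn, in the ranges 1.27 to 1.37 and −0.68 to −0.57, and Sec61b stood at 0.23 with the covariate. Over the mean of its probe sets Ern1 differed by −0.005.

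The promoters of this group are shown because chaperone genes of the endoplasmic reticulum share a known control element, the ER stress response element, here CCAAT, then any 9 bases, then CCACG. It was searched on both strands in RefSeq promoter windows of 300 bases (250 before and 50 after the annotated start, GRCm38.p6). It occurred in 39 of 32851 windows, or 0.119%. Of the 32 secretory genes 26 had a window and 9 of these held it: Calr, Canx, Creld2, Dnajc3, Ero1b, Hsp90b1, Hspa5, Pdia6 and Syvn1. None of the 9 passed the tissue test, and Pdia6, the largest of their differences, stood at −0.95 (adjusted p = 0.158). Of the plasma cell identity genes 1 held it, Derl3, which retrieves misfolded proteins and read 10.43, 9.95 and 8.49 in captured cells and 11.23, 10.71 and 9.91 in whole tissue (−0.99, adjusted p = 0.0503). A match is a description of letters, not of use. Printed 5′ to 3′ on the gene's strand are the 250 bases before the start of Hspa5 (chr2:34771840-34772089, plus strand), Dnajc3 (chr14:118937682-118937931, plus strand) and Derl3 (chr10:75893148-75893397, plus strand), with the match in capitals. In Hspa5 and Dnajc3 it reads forward and begins 65 and 105 bases before the start; in Derl3 it begins 156 bases before and reads as its reverse complement.
Hspa5: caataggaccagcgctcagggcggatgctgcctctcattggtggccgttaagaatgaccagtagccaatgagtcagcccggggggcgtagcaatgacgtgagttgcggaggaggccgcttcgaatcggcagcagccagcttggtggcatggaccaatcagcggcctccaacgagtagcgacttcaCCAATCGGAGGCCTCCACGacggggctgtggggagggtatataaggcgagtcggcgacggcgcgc
Dnajc3: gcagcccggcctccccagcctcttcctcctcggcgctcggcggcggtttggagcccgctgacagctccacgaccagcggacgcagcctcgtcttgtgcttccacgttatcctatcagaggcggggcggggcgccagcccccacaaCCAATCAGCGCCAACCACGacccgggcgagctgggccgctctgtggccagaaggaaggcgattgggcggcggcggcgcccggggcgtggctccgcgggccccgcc
Derl3: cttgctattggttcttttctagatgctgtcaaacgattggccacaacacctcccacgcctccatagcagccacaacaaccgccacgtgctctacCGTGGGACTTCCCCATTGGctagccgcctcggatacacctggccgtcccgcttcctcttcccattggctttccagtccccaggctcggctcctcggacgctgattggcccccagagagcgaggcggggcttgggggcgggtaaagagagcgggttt

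Myc itself, the gene inserted in these mice, did not differ. It read 10.45, 10.75 and 10.44 in captured specimens and 10.22, 11.02 and 11.38 in whole specimens (−0.33, SE 0.35, adjusted p = 0.529), and its sign turned under centring (0.36). Of 9 Myc network genes 3 were higher (33.3%) and 1 lower (11.1%), beside 14.6% and 12.3% of all genes. Mxd4, which competes with Myc for Max, read 10.13, 9.90 and 9.48 against 8.39, 7.86 and 8.60 (1.55, adjusted p = 8.84e-04), and its relative Mxd3 read 6.94, 6.55 and 6.58 against 5.07, 5.71 and 5.53 (1.25). Max, the partner of all of them, read 4.85, 4.69 and 4.68 against 6.36, 5.80 and 5.76 (−1.23). Zbtb17, the factor Miz-1, rose by 0.76. Without specimen 1 Mxd3 (0.94), Max (−1.09) and Zbtb17 (0.66) did not pass, nor Zbtb17 without specimen 2 (0.65), while Mxd4 (0.62), Max (−0.31) and Zbtb17 (0.54) did not pass with the 3′ to 5′ covariate.

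Of 25 Myc targets and ribosome biogenesis genes 4 were lower (16%) and 0 higher, beside 12.3% and 14.6% of all genes. Their median was −0.09, and relative to all genes it turned from −0.12 to 0.02 under centring. Rrs1, needed for ribosome assembly, read 8.18, 8.36 and 8.81 against 9.71, 10.06 and 10.30, and its fall of 1.57 (adjusted p = 7.75e-04) passed under every alternative. Nop58, of the nucleolar particle that guides RNA methylation, fell by 1.52. Ldha, lactate dehydrogenase A, fell by 1.51 and Polr1b, a subunit of RNA polymerase I, by 0.98. Ldha did not pass without specimen 1 (−1.47), under centring (−0.53) or on the deposited scale relative to the median gene (−0.76), nor Polr1b without specimen 2 (−0.83). With the covariate Nop58 (−1.11) and Polr1b (−0.67) did not pass.

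Cell cycle genes gave a like picture: of 26 tested, 1 was higher (3.85%) and 3 were lower (11.5%), beside 14.6% and 12.3% of all genes. Their median was −0.08, and relative to all genes it turned from −0.11 to 0.13 under centring. Mki67, the proliferation marker, read 10.86, 10.87 and 10.88 in captured specimens and 10.89, 10.53 and 9.63 in whole specimens (0.52, adjusted p = 0.363). Captured values hardly varied, and whole specimen 3 was lowest. Ccne2, the cyclin E2 that drives entry into S phase, read 8.64, 8.64 and 8.90 against 6.98, 6.87 and 6.46 (1.96, adjusted p = 0.00479), but did not pass without specimen 3 (1.72). Mcm5, part of the replicative helicase, read 6.76, 7.13 and 7.50 against 8.56, 9.12 and 8.98, and its fall of 1.76 passed under every alternative. The mitotic kinases Plk1 (−1.22) and Aurka (−1.05) were lower. Plk1 was lost without specimen 1 (−1.17) or specimen 2 (−1.12), and Aurka without specimen 2 (−0.85).

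Of 16 niche adhesion and homing genes 2 were lower and 2 higher, 12.5% each, beside 12.3% and 14.6% of all genes. Itgb1, the β1 integrin chain that binds matrix and VCAM-1 with its α partners, read 5.95, 6.32 and 6.71 in captured cells and 8.83, 9.21 and 8.94 in whole tissue (−2.66, 6.34-fold lower, adjusted p = 1.63e-04). Itgb2, the leukocyte integrin β2 chain, read 9.96, 8.94 and 9.65 against 11.61, 11.05 and 11.48 (−1.87). Both integrins passed under every alternative tried. Cd80, a ligand of CD28, rose by 1.13, but not with the 3′ to 5′ covariate (0.68). Itga4, the α4 integrin chain, differed by 0.66 and lost its call without each specimen (0.54 to 0.80) and with the covariate (0.68). The mean of its probe sets differed by 0.26.

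Among cell survival genes, Pmaip1, the death-promoting protein Noxa, read 6.00, 7.17 and 7.40 in captured cells and 8.24, 9.29 and 8.84 in whole tissue (−1.93, adjusted p = 0.00177). With the 3′ to 5′ covariate Pmaip1 did not pass (−0.67). Of 10 Bcl2 family genes tested 4 were lower (40%) and 1 higher (10%), beside 12.3% and 14.6% of all genes. The lower ones were Pmaip1, Bcl2l11 and Bid, which promote death, and Bcl2 (−0.66), which opposes it. Bbc3, the p53 target Puma, was the higher one at 0.95, lost without specimen 2 (0.84) or 3 (0.90). Bcl2l11, known as Bim, stood at −1.23 and was lost without specimen 1 (−1.01) or 2 (−1.22), under centring (−0.43) and on the deposited scale relative to the median gene (−0.66). With the covariate Bcl2l11 did not pass either (−1.32). Of its 4 other probe sets, that at −1.29 passed and those at −0.55, −0.09 and 0.01 did not. Bid stood at −0.69 and was lost without specimen 2 (−0.47) or 3 (−0.70). Bcl2 was lost without each specimen (−0.78 to −0.58) and with the covariate (−0.75). Gadd45a, induced by DNA damage, fell by 2.36 (adjusted p = 0.0011) and Cdkn2b, the inhibitor p15 of Cdk4 and Cdk6, rose by 1.05 (adjusted p = 3.19e-04); Cdkn2b passed under every alternative, and Gadd45a under the 17 that tested it. Ccnd1, cyclin D1, differed by 0.86 and was lost without each specimen (0.64 to 1.09) and with the covariate (0.25).

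IL-6 is the growth factor of plasma cell tumours and signals through Jak2 and Stat3. Il6 read 6.09, 6.24 and 5.99 in captured cells and 4.08, 4.51 and 5.40 in whole tissue (1.45, adjusted p = 0.096), with no overlap. Of 15 genes of this pathway 3 were higher (20%) and 0 lower, beside 14.6% and 12.3% of all genes, with a median of 0.40. Socs3, the feedback inhibitor that Stat3 induces, read 8.71, 9.55 and 9.84 against 7.95, 8.27 and 8.12 (1.25, adjusted p = 0.00648). Jak2 stood at 1.10, with a second probe set at −0.41 and their mean at 0.34 not past the threshold, and Il11, a cytokine of the IL-6 family, at 1.07. Without specimen 2 none of the 3 passed (Socs3 1.24, Jak2 1.15, Il11 0.91), and without specimen 3 Socs3 (1.02) and Jak2 (0.87) did not. With the 3′ to 5′ covariate all 3 calls were lost, at 1.23, 0.20 and 0.10 in the same order.

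Among inflammatory regulators, Nfkb2, the NF-kB subunit p100 and p52, rose by 0.94 (adjusted p = 2.63e-04). Of 10 NF-kB genes Nfkb2 alone passed (10%, beside 26.9% of all genes). It passed under every alternative tried, but its second probe set differed by −0.12 and did not pass. Il1rn, the inhibitor of IL-1, read 4.46, 4.67 and 4.78 against 7.18, 6.64 and 6.89 (−2.27, adjusted p = 9.72e-04), but did not pass with the covariate (−1.37). Of its other probe sets, that at −1.83 passed and that at 0.09 did not. Zfp36, which destabilizes cytokine messages, fell by 1.81 and passed under every alternative. Ifit1, an interferon-induced gene, rose by 2.04, but did not pass without specimen 2 (1.93) or with the covariate (1.67). Of 13 interferon response genes 2 were higher (15.4%) and 0 lower, beside 14.6% and 12.3% of all genes. Of 14 polycomb and chromatin genes 1 passed (7.14%, beside 26.9% of all genes), the polycomb protein Bmi1 (1.10, adjusted p = 0.0011). The Bmi1 call was lost when the 9 arrays were fitted alone (1.10). The second probe set of Bmi1 differed by 0.72 and did not pass.

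The macrophage picture was split. Of 22 macrophage genes tested 2 were lower (9.09%) and 0 higher, beside 12.3% and 14.6% of all genes. Their median was −0.53, and relative to all genes it turned from −0.56 to 0.04 under centring. Gpnmb, a glycoprotein of lipid-laden macrophages, read 7.12, 7.50 and 7.23 in captured cells and 11.19, 9.31 and 8.70 in whole tissue. Its fall of 2.45 (SE 0.47, 5.46-fold, adjusted p = 1.58e-04) passed under every alternative. Ctsk, a collagen-degrading cathepsin, stood at −1.47 and was lost without specimen 1 (−0.71) or 2 (−1.71). Cd68 read 8.58, 8.70 and 8.04 against 10.48, 9.04 and 9.73 (−1.31, adjusted p = 0.0569). Csf1r, the receptor macrophages need to live, stood at 0.99 and Aif1 at 1.34, neither past the threshold; under centring both passed (1.59 and 1.48), and with the 3′ to 5′ covariate Csf1r stood at −0.24. Lysosome genes gave 7 lower (41.2%) and 0 higher of 17, with a median of −0.73. Psap, the precursor of sphingolipid activators, read 9.65, 9.88 and 9.85 against 12.72, 12.05 and 11.65 (−2.35), and Lgmn, a lysosomal protease, fell by 1.51. Psap and Lgmn passed under every alternative. Gusb, at −1.26, did not without specimen 2 (−1.22) or 3 (−1.20), under centring (−0.39) or on the deposited scale relative to the median gene (−0.62).

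Complement genes gave 3 lower (27.3%) and 0 higher of 11, beside 12.3% and 14.6% of all genes. Cfb, factor B of the alternative pathway, read 8.00, 6.93 and 7.58 in captured cells and 11.20, 9.00 and 9.93 in whole tissue (−2.54, adjusted p = 1.09e-05). C1s1, a protease of the classical pathway, fell by 1.84 and C5ar1, the receptor of C5a, by 1.16. All 3 passed under every alternative. Among 6 MHC class II genes 2 were lower (33.3%) and 0 higher. H2-Aa read 10.19, 7.65 and 10.08 against 12.29, 8.89 and 11.15 (−1.47) and Cd74, the invariant chain, stood at −1.40. H2-Aa did not pass without specimen 1 (−1.15) or under centring (−0.87), nor Cd74 without any 1 specimen (−1.56 to −1.11), and specimen 2 was lowest for both in both tissues.

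Neutrophil genes went both ways, with 3 higher (27.3%) and 2 lower (18.2%) of 11, beside 14.6% and 12.3% of all genes. S100a9 and S100a8, the calprotectin subunits, read 8.37, 7.68 and 7.79 against 6.71, 5.01 and 5.44 (2.23), and 9.42, 8.58 and 9.15 against 8.38, 6.95 and 6.89 (1.64). Their calls were lost without each specimen (2.01 to 2.51 and 1.33 to 1.95). With the covariate both calls were lost too, S100a9 at 1.19 and S100a8 at 1.87. Cxcr2, a chemokine receptor of neutrophils, fell by 1.03 and passed under the 17 alternatives that tested it. Lcn2, a granule protein, stood at −1.83 but was lost without specimen 1 (−1.41) or 3 (−1.76) and with the covariate (−1.98). Of 11 T and NK cell genes 2 were higher (18.2%) and 0 lower, near the shares of all genes on the higher side. Klrd1, the NK receptor CD94, read 7.37, 5.66 and 6.02 against 4.58, 3.87 and 3.96 (2.21, adjusted p = 9.93e-04) and passed under the 17 alternatives that tested it. Gzmb, granzyme B, stood at 0.84 and was lost without specimen 2 (0.67) or 3 (0.77) and with the covariate (0.56). Of 5 mast cell genes 1 passed (20%, beside 26.9% of all genes), the receptor Kit, at −1.21. It did not pass with the covariate (−0.83).

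Smooth muscle had the lowest list median, −1.61, with 3 of 11 genes lower (27.3%) and 0 higher, beside 12.3% and 14.6% of all genes. The medians of specimens 1, 2 and 3 were −2.03, −0.16 and −2.97, so specimen 2 hardly differed between its tissues. Myh11, smooth muscle myosin, read 3.63, 3.31 and 3.13 in captured cells and 6.90, 4.19 and 6.92 in whole tissue (−2.65). Mylk, its activating kinase, stood at −2.57 and Tagln at −2.30. Without specimen 1 these were −2.34, −2.15 and −2.04 and without specimen 3 −2.08, −2.07 and −1.63, in the same order, and none passed. The mean of the Mylk probe sets stood at −1.28 and did not pass either. Of 22 fibroblast and matrix genes 5 were lower (22.7%) and 0 higher. Fbln2 (−1.58), Fbln1 (−1.44), Col1a2 (−1.43) and Bgn (−1.37) led, and none passed without specimen 1 (−1.21, −1.20, −1.22 and −1.03); Col1a2 was also lost without specimen 3 (−1.38), and under centring Col1a2 (−0.59) and Bgn (−0.81) did not pass. The second probe set of Col1a2 differed by 0.35, the mean of both by −0.54, and the deposited scale relative to the median gene gave −0.82, none past the threshold. Col3a1 stood at −0.18, did not pass, and turned to 0.94 under centring. Of 14 vessel genes 3 were lower (21.4%) and 1 higher (7.14%): Tek, the angiopoietin receptor, stood at −1.52, Tie1 at −1.26 and Pecam1 at −1.24. Tek (−1.38) and Tie1 (−1.08) were lost without specimen 1, and Tek (−1.20) and Pecam1 (−1.04) without specimen 2. With the covariate Tek (−1.54) and Pecam1 (−0.75) were lost.

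**Figure D3:**
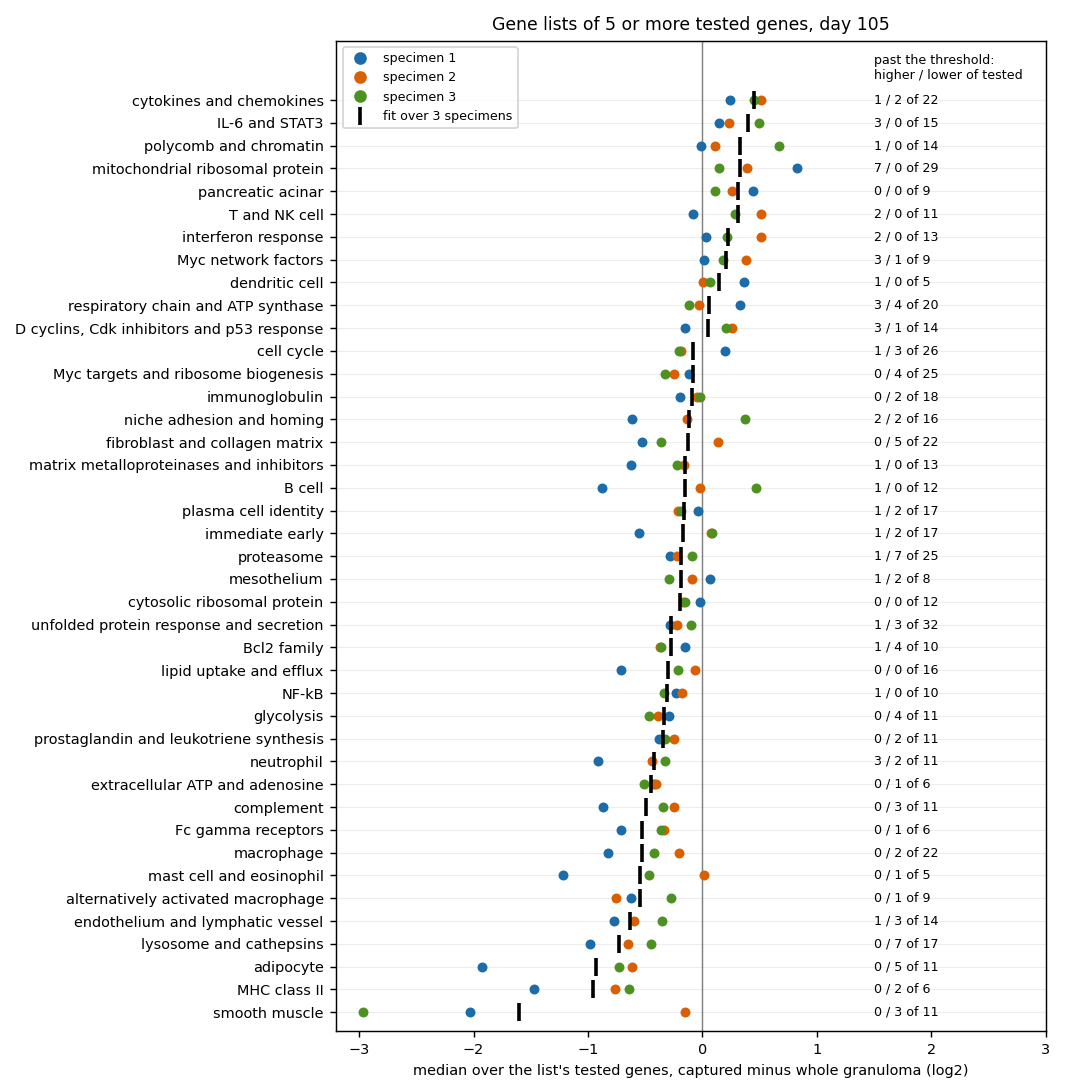
Median captured minus whole difference (log2) of each gene list with 5 or more tested genes; coloured points are the 3 specimens, black bars the fit, and the numbers at the right count genes past the threshold as higher and lower. Smooth muscle (−1.61), MHC class II (−0.96) and adipocyte (−0.93) lie lowest, and cytokines and chemokines (0.45) and IL-6 and STAT3 (0.40) highest.

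Housekeeping complexes held genes that differed in each direction. Of 25 proteasome genes 7 were lower (28%) and 1 higher (4%), beside 12.3% and 14.6% of all genes. Their median was −0.19, and relative to all genes it turned from −0.22 to 0.36 under centring. Over all 42 tested genes named Psm, counted after values were seen, 9 were lower (21.4%) and 6 higher (14.3%), with a median of 0.04. Psmd1, a base subunit of the regulatory particle, read 8.18, 8.90 and 8.68 in captured cells and 10.04, 10.66 and 10.50 in whole tissue (−1.81, adjusted p = 4.67e-06). It and Psmb2, a core subunit, at −1.56, passed under every alternative. Of 20 respiratory chain and ATP synthase genes 3 were higher (15%) and 4 lower (20%). Cycs, cytochrome c, stood at 1.42 and was lost without each specimen (1.35 to 1.54) and with the covariate (0.27), and Atp5b, the catalytic β subunit of ATP synthase, at −1.92 and was lost under centring (−0.86). Of 11 glycolysis genes 4 were lower (36.4%) and 0 higher, with a median of −0.33. Without specimen 1 none of the 11 passed. Pfkl stood at −1.16 (−1.08 without specimen 1) and Pkm at −1.15 (−0.96 without specimen 1 and −1.18 without specimen 2). The Pkm call was also lost under centring (−0.35) and on the deposited scale relative to the median gene (−0.59). Of 12 cytosolic ribosomal protein genes none passed, with a median of −0.20 that relative to all genes turned from −0.23 to 1.05 under centring. Over all 47 tested genes named Rpl or Rps, 7 were higher (14.9%) and 3 lower (6.38%), with a median of 0.17.

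The 3 specimens differed from one another in ways that both of their tissues shared. In specimen 1, 119 genes were at least 2-fold higher and 42 lower than in both other specimens, in captured cells and whole tissue alike. The same counts were 25 and 42 in specimen 2, and 22 and 32 in specimen 3. These counts describe 3 specimens and carry no test. Besides Ighg3, specimen 1 was high for Mst1, the growth factor macrophage-stimulating protein, at 8.26 and 8.25 against 4.32 to 5.24 elsewhere. It was low for Neurog3, a transcription factor known from the endocrine pancreas, at 4.28 and 3.98 against 8.49 to 9.22. Specimen 2 was low for the chemokine Ccl8, at 8.66 and 8.49 against 10.91 to 12.22, and for Reln, a secreted matrix protein, at 7.35 and 8.17 against 11.18 and 11.13 in specimen 1. It was high for Bex1, at 10.29 and 10.46 against 4.13 to 6.93.

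The genes low in specimen 3 included some of the secretory machinery, in the tissue as well as in the captured cells. Kdelr3, a receptor that returns proteins to the endoplasmic reticulum, read 5.71 captured and 6.02 whole in specimen 3, against 8.07 to 10.15 in the others. Pdia5, a disulfide isomerase, read 6.03 and 5.97 against 8.10 to 9.11. Dnajc3, whose promoter is printed above, read 8.09 and 7.69 against 9.23 to 11.17, and Herpud1 read 8.09 and 8.79 against 9.67 to 10.88. Klra5, of the Ly49 receptors, ran the other way and was highest in specimen 3, at 9.67 captured and 7.90 whole, and lowest in specimen 1, at 4.11 and 3.52. Prdm1 was not low in specimen 3, at 9.84 captured and 9.86 whole.

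**Figure D4:**
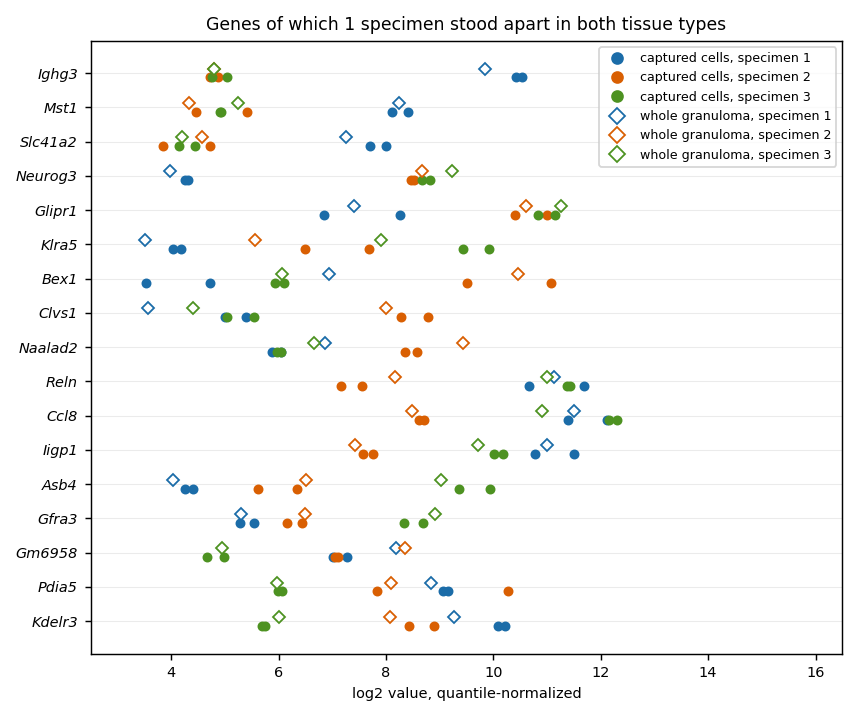
Log2 values of genes for which 1 specimen stood at least 2-fold apart from the other 2 in both tissues; filled circles are captured arrays and open diamonds whole-granuloma arrays, coloured by specimen. Ighg3 is high in specimen 1, Bex1 in specimen 2 and Asb4 in specimen 3, and Kdelr3 and Pdia5 are low in specimen 3.

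Day 105 was set against days 7, 17, 33 and 49 of the same study, 36 arrays. Of the 2322 genes called at day 105, 2273 had the same sign in the mean difference of those days (97.9%), against 6911 of all 8617 genes (80.2%). Each day has its own specimens. Which arrays were processed together is not stated, and the part of shared processing in this agreement was not tested. The contrast of the day 105 difference with the mean of the other days passed for 2 genes (0.0232%). At an unadjusted p under 0.05 there were 765 genes above the other days (8.88%) and 463 below (5.37%). Both genes that passed had moved in the whole tissue. Sncg, gamma-synuclein, known from fat and nerve, read 4.95, 4.60 and 4.57 in whole specimens at day 105 and 6.10 to 7.49 on the other days, while captured values stayed at 3.16 to 3.84 on all 5 days. The gap was thus −1.06 at day 105, 2.23 less negative than before (adjusted p = 1.89e-05). Oplah, an enzyme of the glutathione cycle, read 5.87, 4.93 and 4.76 in whole tissue against 5.97 to 8.09 on the other days, and its gap of −0.96 was 1.76 less negative (adjusted p = 0.0193). Without specimen 2 (1.67) or specimen 3 (1.61) the Oplah contrast did not pass. The Sncg gap of day 105 did not pass by itself without specimen 1 (−0.89), nor that of Oplah without specimen 1 (−0.70) or 2 (−1.05).

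1 captured array of day 49 stood apart from all others and widened the pooled spread. Its deposited median was 5.64, against at most 5.43 in captured arrays of the other days of study 2. The 3′ to 5′ difference in captured arrays of day 49 went down to 0.46, against 3.10 at day 105. The array that stood apart was kept in the main fit and in the means of the other days. Without it 68 genes passed, 40 above and 28 below the other days, and 1612 at an unadjusted p under 0.05. In 6 of the 40 and 6 of the 28 the captured level had moved more than the whole level. Among those above were Chpt1, an enzyme of phospholipid synthesis (2.53), Plin4, a lipid droplet coat protein (2.30), Fxyd6 (2.01) and Slc2a4, the insulin-responsive glucose transporter (1.78). Among those below were Kdm5a, a histone demethylase (−2.31), Rbm25, a splicing regulator (−1.79), Cenpe, a mitotic motor (−1.69), and Cdc25c, the phosphatase that starts mitosis (−1.23).

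For smooth muscle and adipocyte genes the gap between tissues was smaller than on earlier days. All 11 smooth muscle genes and 10 of 11 adipocyte genes had a day 105 difference above the mean of the other days, as had 4775 of all 8617 genes. The mean adipocyte level in whole sections was 10.33, 10.12, 10.08 and 9.13 on days 7, 17, 33 and 49 and 7.58 ± 1.37 at day 105 (SD, n = 3), and in captured cells it was 7.22 on day 7 and 5.56 ± 0.26 at day 105. Smooth muscle in whole sections went from 11.08 on day 7 to 7.00 ± 1.32 at day 105. Of plasma cell and cell cycle genes 1 of 17 and 2 of 26 lay above the mean of the other days, and the list medians, 0.22 and 0.49 over those days, were −0.16 and −0.08 at day 105. In whole sections the plasma cell mean was 8.37, 8.31, 8.89 and 8.64 on the earlier days and 9.62 ± 0.27 at day 105, and in captured cells 9.00, 9.10, 9.30, 8.88 and 9.53 ± 0.40. The cell cycle mean of whole sections was 8.06 to 8.68 before and 9.23 ± 0.31 at day 105. These list means are a description, with no test.

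**Figure D5:**
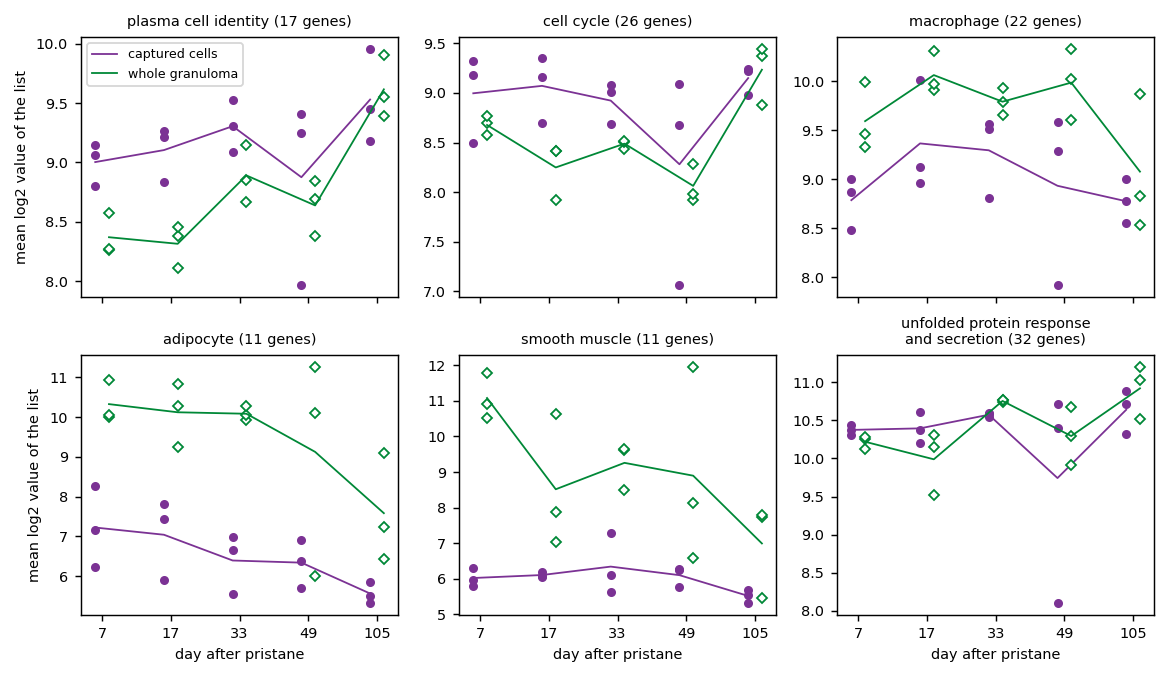
Mean log2 level of 6 gene lists over days 7, 17, 33, 49 and 105 of study 2; points are specimen averages of captured cells (purple circles) and whole granuloma (green diamonds), and lines join the means. At day 105 the plasma cell and cell cycle means of the tissues lie together, at 9.53 and 9.62 and at 9.15 and 9.23, and the whole-tissue adipocyte mean has dropped to 7.58.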

How the data were processed

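The series measured mouse gene expression on 82 arrays of 22690 probe sets. The authors' deposited log2 values were made with Partek by RMA, as the submitters' processing notes state; version and settings are not given in the sources used. RNA of both tissues went through 2 rounds of linear amplification, per the labels' protocols. Columns of no sample numbered 0. The deposited values were quantile-normalized over all 82 arrays, arrays of 1 specimen and tissue were averaged (53 averages), and each gene was read from its probe set with the highest mean. Probe sets were named from the platform's annotation, updated through gene identifiers: 20380 had 1 symbol, 691 several and 1555 none listed. Genes above the array median in at least 3 averages were tested (8617 of 12393).

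Differences were fitted with limma 3.58.1 in R 4.3.3 over all 19 groups of study, day and tissue, in which specimen was a random block (correlation 0.11, 34 residual degrees of freedom), and adjusted by Benjamini-Hochberg over all genes at 0.05. Specimen numbers pair the tissues: same-numbered deviations from group means correlated at 0.67, 0.70 and 0.48 across genes, and every crossed pair below 0. The fit was also run on simulated data with known changes, as a check of the code alone. Named genes were the 10 largest increases and 10 largest decreases that passed with 1 sign in all specimens, immunoglobulin genes left out. Also named were up to 4 passing members of a list with the largest differences, and fixed plasma cell, Myc and B cell genes. The 8 largest passing contrasts with other days in each direction were named too. Genes given outside this rule were chosen after their values were seen. The members, the 44 lists and the tests were chosen with earlier results of these data known. The number of arrays limits precision.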

Additional observations from a re-analysis of the deposited data

Results flagged for a closer look

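The tissue difference at day 105 departed from that of the other days, by the contrast of the fitted differences, for Sncg (2.23) and Oplah (1.76). Whole-tissue values of Sncg at day 105 lay at 4.57 to 4.95, below the 6.10 to 7.49 of the other days, and those of Oplah at 4.76 to 5.87, below 5.97 to 8.09. Captured values of both overlapped those of the other days. The contrast for Sncg passed under the 13 alternatives in which it was run. That for Oplah did not pass in study 2 alone, without the specimen block, with that block as a fixed term, or without specimen 2 or 3.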

How the results depend on the processing

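The count of 2322 genes (1258 higher and 1064 lower in captured cells) was recomputed under 18 alternatives. On the deposited scale it was 7647, with 16 higher and 7631 lower. Centring each array on its median gave 2175 higher, and the 3′ to 5′ covariate gave 802 higher. With the replicate block as a fixed term the count was 3782 on day 105 alone (2009 and 1773) and 1399 in study 2 (725 and 674). Taking every probe set as its own measurement gave 3892 (1898 and 1994). Leaving out 1 specimen gave 1206 to 1434, with 653 to 819 higher and 548 to 615 lower. The other alternatives gave 1677 to 3217 genes. Taking each probe set, the fixed block in study 2 and leaving out the day 49 array were alternatives decided on after the data were seen. The same holds for counting specimen code 5 of day 7 of study 1 as 2 specimens.

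The contrast with the other days, passed by 2 genes, was passed by 30 on the deposited scale, 19 under centring, 4 with no filter on dim genes, 62 with the covariate, 41 over probe sets and 68 without the day 49 array that stands apart. It was passed by 1 in study 2 only, with no replicate block and with the replicate block as a fixed term, and by 1 to 8 without 1 specimen. It was not run over the 9 arrays or the averages of day 105 alone. Nor was it run without the captured array of piece 1A, under the stricter filter on dim genes or over the mean of probe sets.

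Of 100 genes given above that passed, 30 passed under all 18 alternatives, and 3 more, Cxcr2, Gadd45a and Klrd1, under the 17 that tested them, not being tested under the stricter filter on dim genes. Calls were lost for 43 with the covariate, for 40, 33 and 25 without specimens 1, 2 and 3, for 23 with the 9 arrays alone, and for 23 with the replicate block as a fixed term in study 2. In the fit over every probe set, 820 called genes had another probe set tested. For 275 of these another probe set passed in the same direction, and for 120 another passed in the opposite direction. Of the genes given above, none that passed changed direction under the alternatives. Among those that had not passed, the sign turned under centring for Col3a1 (0.94), Fabp4 (0.19), Igha (1.43), Igkv8-30 (1.03), Lpl (0.48), Myc (0.36), Pdia6 (0.29) and Prdm1 (0.12). On the deposited scale relative to the median gene it turned for Col3a1 (0.71), Igha (1.20), Igkv8-30 (0.80), Lpl (0.25), Myc (0.13) and Pdia6 (0.058). With the covariate it turned for Csf1r (−0.24), Hspa5 (−0.60), Jchain (−0.75), Mki67 (−0.17) and Sdc1 (−0.20), with the mean of probe sets for Col3a1 (0.32) and Sdc1 (−0.10), and without 1 specimen for Col3a1 (−0.35 to 0.13), Fabp4 (−0.53 to 0.34), Lpl (−0.53 to 0.67), Igha (−0.18 to 0.14), Hspa5 (lowest −0.12) and Jchain (lowest −0.04). The cause was not tested.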
